A study of Mus musculus with 6 samples.

Results

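The nuclear genes of oxidative phosphorylation (OXPHOS) were examined for chromatin accessibility in muscle nuclei after knockdown of Yap. Members were the promoter windows whose gene symbol begins with Nduf, Sdha to Sdhd, Uqcr, Cox followed by a digit, or Atp5, which gave 96 of 49366 windows. A window joins the bases within 1 kb of any annotated start of a gene's transcripts. The 96 windows carry 95 symbols because Atp5o has 2 gene records, and 9 further rows of processed copies named with -ps were left out. They comprise 72 windows of subunits, 17 of assembly factors, 2 of related protein-coding genes (Cox7a2l and Ndufa4l2) and 5 of processed pseudogenes that the symbol rule takes in (Cox6c2, Cox20b, Ndufa11b, Ndufb4c and Ndufs6b). Of the subunit windows, 27 belong to complex I, 2 to complex II, 8 to complex III, 18 to complex IV and 17 to complex V. A further 16 annotated genes meet the rule but have no window among the 49366, so no count below includes them. They are Atp5s, Cox10, Ndufa1, Ndufa2, Ndufa8, Ndufa11, Ndufa13, Ndufaf2, Ndufb3, Ndufb9, Ndufb11, Ndufs6, Sdhaf3, Sdhaf4, Sdhc and Sdhd.

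The assay was ATAC-seq, which reads out open chromatin from the sites where a transposase can insert adapters, in nuclei sorted for the perinuclear muscle fibre marker PCM1. The nuclei came from male C57BL/6J mice injected at 8 weeks of age with AAV6:LacZ-shRNA, a control hairpin vector, or AAV6:Yap-shRNA, given to opposite limbs, and collected at day 28. Each group held 3 samples, and each sample pooled 4 gastrocnemius and 4 tibialis anterior (TA) muscles, so the spread between samples is a spread between pools and not between mice. Both groups carry an AAV6 vector and a hairpin, and no sample without a vector was included, so effects that the vector has in both groups cannot be seen in these comparisons. In pooled nuclei, fewer nuclei with an open site and less opening in each nucleus cannot be told apart.

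OXPHOS is the last stage of fuel oxidation. Complexes I and II pass electrons from NADH and succinate to ubiquinone, complex III passes them on to cytochrome c, and complex IV hands them to oxygen. The proton gradient that complexes I, III and IV build drives complex V, the ATP synthase. Most subunits are encoded in the nucleus, each complex needs dedicated assembly factors, and complex IV has alternative isoforms of several subunits. Cox6a2, Cox7a1 and Cox8b are the isoforms of heart and skeletal muscle, while Cox6a1, Cox7a2 and Cox8a are used in most tissues. Nuclear respiratory factor 1 (NRF1), the ETS family factor GABPA, the ERR receptors, YY1 and SP1 are known regulators of OXPHOS promoters. Yap itself binds no DNA and acts through TEAD factors.

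Promoter sequences were available from RefSeq (GRCm38.p6) for 73 of the members' gene symbols, with 79 promoters in all, each covering 250 bases before and 50 after the gene start. The bases before the start are shown for the muscle isoforms Cox7a1 and Cox8b beside their widely used partners Cox7a2 and Cox8a, since these pairs are compared throughout. Cox6a1 and Ndufaf4 are added because each holds the NRF1 motif, and Ndufaf4 had the smallest p-value of all member windows. Each is written from 5′ to 3′ on the strand of its gene, ending at the start, or earlier where the GENCODE gene begins earlier. Capitals mark the motifs named after the sequences.
Cox7a1, chr7:30183921-30184143, plus strand: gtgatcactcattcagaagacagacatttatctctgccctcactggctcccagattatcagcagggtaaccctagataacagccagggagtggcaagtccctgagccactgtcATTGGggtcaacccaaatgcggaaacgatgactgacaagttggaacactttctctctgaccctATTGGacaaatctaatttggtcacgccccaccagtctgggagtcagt
Cox7a2, chr9:79759879-79760103, minus strand: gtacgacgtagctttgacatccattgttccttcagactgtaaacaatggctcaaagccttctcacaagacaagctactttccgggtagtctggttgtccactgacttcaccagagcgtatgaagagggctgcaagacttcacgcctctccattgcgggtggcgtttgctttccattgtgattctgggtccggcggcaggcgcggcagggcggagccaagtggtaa
Cox8b, chr7:140900447-140900696, minus strand: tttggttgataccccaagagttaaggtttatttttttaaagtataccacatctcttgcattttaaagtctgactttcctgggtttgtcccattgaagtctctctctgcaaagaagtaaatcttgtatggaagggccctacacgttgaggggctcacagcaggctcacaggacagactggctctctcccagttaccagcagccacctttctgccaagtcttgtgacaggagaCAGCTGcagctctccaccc
Cox8a, chr19:7217617-7217866, minus strand: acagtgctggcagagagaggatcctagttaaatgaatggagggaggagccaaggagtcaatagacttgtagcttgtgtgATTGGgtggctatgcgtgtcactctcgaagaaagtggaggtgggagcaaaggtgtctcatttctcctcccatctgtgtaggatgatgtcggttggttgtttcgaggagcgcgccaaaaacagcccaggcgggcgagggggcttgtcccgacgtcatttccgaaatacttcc
Cox6a1, chr5:115348982-115349208, minus strand: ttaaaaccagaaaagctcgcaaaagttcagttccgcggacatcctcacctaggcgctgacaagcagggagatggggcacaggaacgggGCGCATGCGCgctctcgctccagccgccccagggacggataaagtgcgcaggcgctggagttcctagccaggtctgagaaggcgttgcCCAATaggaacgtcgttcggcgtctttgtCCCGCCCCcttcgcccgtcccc
Ndufaf4, chr4:24897833-24898082, plus strand: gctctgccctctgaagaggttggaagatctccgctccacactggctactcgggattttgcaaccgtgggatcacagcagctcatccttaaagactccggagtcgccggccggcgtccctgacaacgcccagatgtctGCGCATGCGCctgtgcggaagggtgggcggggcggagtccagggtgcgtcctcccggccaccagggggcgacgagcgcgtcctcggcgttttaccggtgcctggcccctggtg
The capitals are 2 CCAAT motifs in Cox7a1 and 1 in Cox8a, and 1 E-box (CAGCTG), the site of myogenic factors, 19 bases before the start of Cox8b. In Cox6a1 they mark the NRF1 motif GCGCATGC, which overlaps itself on the other strand, a CCAAT motif and an SP1 motif (GGGGCGGG). In Ndufaf4 they mark the same overlapping NRF1 motif. No motif of the set was found in the shown part of Cox7a2.

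The muscle isoforms Cox7a1 and Cox8b differed from their partners in base composition. CpG dinucleotides occurred at 0.115 of the number expected from the C and G content in the promoter of Cox8b and at 0.333 in that of Cox7a1. The ratio was 0.842 in Cox8a, 0.833 in Cox7a2 and 1.08 in Cox6a1. The median over the 79 member promoters was 0.813, against 0.588 over 19184 promoters of protein-coding genes with a window. Both also had the lower GC content of their pair, at 48.3% in Cox8b against 56.0% in Cox8a and 53.0% in Cox7a1 against 56.7% in Cox7a2. No promoter values are given for Cox6a2, so the value of Cox6a1 stands without its partner.

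Exact motif matches were counted on both strands of the whole promoters. NRF1 letters (GCGCATGC) were in 12.7% of the 79 member promoters, in 2.71% of all 32851 promoters and in 3.60% of those of protein-coding genes with a window. Their 10 member genes are Atp5g2, Atp5k, Atp5l, Cox6a1, Ndufa6, Ndufaf4, Ndufaf5, Sdhb, Uqcr11 and Uqcrc1. GABPA letters (CCGGAAGT) were in 10.1% of member promoters and 3.89% of all, and YY1 letters (AAGATGGCG) in 8.86% and 1.403%. For protein-coding genes with a window, the GABPA and YY1 shares were 5.23% and 1.85%. The ERR motif TCAAGGTCA was in 1 member gene, Atp5g3, or 1.27% of member promoters against 0.423% of all. SP1 letters (GGGGCGGG) were in 24.1% and 16.5%, and CCAAT in 41.8% and 37.4%. For protein-coding genes with a window, the SP1 and CCAAT shares were 23.1% and 37.6%. The SP1 share of member promoters was thus close to that of protein-coding genes. The TEAD motif ACATTCC was in 3.80% of member promoters and 3.85% of all, and its member genes are Atp5d and Cox5a. The E-box CAGCTG was in 6.33% of member promoters and 16.3% of all, and the MEF2 motif CTAAAAATA was in none of them and in 0.517% of all. The mitochondrial ribosomal protein genes, another set of nuclear genes for mitochondria, held NRF1 letters in 12.1% and YY1 letters in 10.6% of 66 promoters. These matches are letters in a window and do not show binding.

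**Figure D1:**
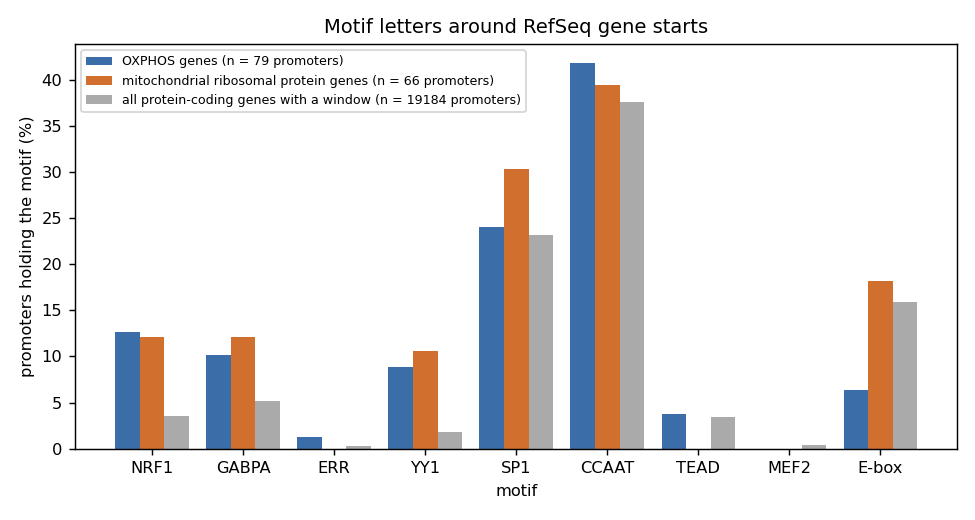
Share of promoters (percent, vertical axis) that hold each motif (horizontal axis) in the OXPHOS genes, the mitochondrial ribosomal protein genes and all protein-coding genes with a window, from exact matches on both strands of 300 bases. The NRF1, GABPA and YY1 bars of the OXPHOS genes stand above those of all protein-coding genes, at 12.7%, 10.1% and 8.86%, and the E-box bar stands below, at 6.33%.

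The members stood close to other genes. Of the 96 windows, 44 (45.8%) overlapped the window of another gene, against 21.0% of all windows and 28.7% of all protein-coding windows. In 30 of them (31.3%) the neighbour was a protein-coding gene on the opposite strand, against 12.3% of protein-coding windows. Examples are Atp5j with Gabpa, the gene of the ETS factor named above, Ndufb5 with Mrpl47, Cox11 with Stxbp4 and Ndufs1 with Eef1b2. The mitochondrial ribosomal protein genes overlapped in 50.7% of 67 windows. This layout bears on the levels, because fragments that touch 2 windows were counted for neither. In 42 overlapping member windows the window count was a median 0.587 of the count of the peaks at the same starts, against 1.38 in 40 windows that overlap no other. The lowest ratios included Ndufa4 at 0.0694 and Cox6a1 at 0.112, whose windows share 80.2% and 89.6% of their bases with Phf14 and Gm42903. Levels are therefore given below for the 52 member windows that overlap no other, and peaks are used for the rest.

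By gene symbol, peaks lay within 1 kb of a start for 84 of the 96 member windows (87.5%), against 51.8% of all protein-coding windows. Every subunit symbol of complexes I, II, III and V had one. An Atp5o record whose start lies beyond 1 kb of the Atp5o peak is counted here through the other Atp5o record. The 12 whose symbol had no peak were the 5 pseudogenes, the complex II assembly factor Sdhaf1, Ndufa4l2, and 5 complex IV subunits. These subunits were Cox4i2, Cox6b2, Cox7b2 and Cox8c, alternative isoforms described in lung or testis, and Cox7b, the widely used partner of Cox7b2. Cox7b lies on chromosome X, which male mice carry in a lower copy number than the autosomes. The 88 member peaks had a median of 36.5 CPM (counts scaled to library size), against 29.9 for 12725 promoter peaks and 15.1 for all peaks. They ran from 8.45 CPM at a start of Ndufb5, in a peak of 434 bases, to 193 CPM at Cox14, in one of 3660 bases. These values are not scaled by width. Median widths were 1183 bases for member peaks, 1145 for promoter peaks and 902 for all peaks. Per kb of peak, Cox20 had 60.1 CPM and Cox14 had 52.7. These peaks also lie within 1 kb of a start of B230369F24Rik and Gm16537, and 40 of the 88 member peaks are shared with another gene in this way.

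Levels per length, in CPM per kb of window averaged over the 6 samples, ran from 2.71 to 28.1 in the 52 members with a window of their own. Their median was 9.81, with a standard deviation (SD) of 0.851 between samples. The 14638 protein-coding windows of their own had a median of 6.48 with an SD of 0.154. Sdhb, the iron-sulphur subunit of complex II, was the highest at 28.1 ± 3.81 (SD, n = 6), which is the 99.1 percentile of those protein-coding windows. Its samples ran from 24.2 to 34.5 CPM per kb. Next came Cox5a, a structural subunit of complex IV, at 23.0 ± 2.32, and Ndufs8, an iron-sulphur subunit of the peripheral arm of complex I, at 22.0 ± 2.33. Atp5g1, which encodes the c-ring of ATP synthase, had 20.1 ± 1.84. The means of these 3 overlapped within their SDs, but the levels come from the same samples. Cox5a and Ndufs8 were each above Atp5g1 in every sample, while the order of Cox5a and Ndufs8 changed between samples. The order depends on dividing by the window, which joins all annotated starts. Per kb of peak, Sdhb had 28.7 CPM, Cox5a 37.1, Ndufs8 29.35 and Atp5g1 43.0.

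The complexes were described by the same measure. The median was 11.6 CPM per kb in 15 complex I subunits, 11.9 in 3 complex III subunits, 8.70 in 14 complex IV subunits and 12.1 in 6 complex V subunits. Complex II was represented by Sdhb alone. The SDs of these medians over the 6 samples were 1.12, 1.22, 0.447 and 1.89, so complexes I, III and V lay within each other's spread. Their order within each sample was not compared. The complex IV median takes in the 5 subunits without a peak, at 3.27 (Cox7b) to 7.11 (Cox4i2) CPM per kb. No such subunit is among those of the other complexes. The complex IV subunits with a peak and a window of their own ran from 5.70 (Cox6c) to 23.0 (Cox5a). In complex I the 4 core subunits, which carry the redox centres, had a median of 16.4, and the 11 accessory subunits one of 9.98. Per kb of peak, these core subunits ran from 29.35 CPM (Ndufs8) to 42.3 (Ndufv2). The accessory ones ran from 19.2 (Ndufs4) to 35.3 (Ndufa6). Ndufa9, an accessory subunit, was lowest of complex I at 7.08 ± 0.507 (SD, n = 6). Within complex III the highest was Uqcr11, a small subunit, at 16.95 ± 1.91, and Uqcrfs1, the Rieske iron-sulphur protein, was lowest at 11.8 ± 1.23. Within complex V the lowest was Atp5mpl, a small membrane subunit, at 9.27 ± 1.29. Complex IV had the widest range, from Cox7b at 3.27 ± 0.869 to Cox5a. The level of Cox7b, on chromosome X in male mice, was not scaled for its lower copy number. The 6 assembly factors with a window of their own had a median of 8.35. The 5 pseudogenes had one of 5.02, with Ndufs6b highest at 8.51 ± 2.00.

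Over all subunits, overlapping windows included, the lowest were Ndufa5 in complex I at 2.76, Sdha in complex II at 2.64, Uqcrb in complex III at 1.60, Ndufa4 in complex IV at 1.16 and Atp5o in complex V at 1.59 CPM per kb. Each of these 5 windows overlaps another, so these values are undercounts.

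**Figure D2:**
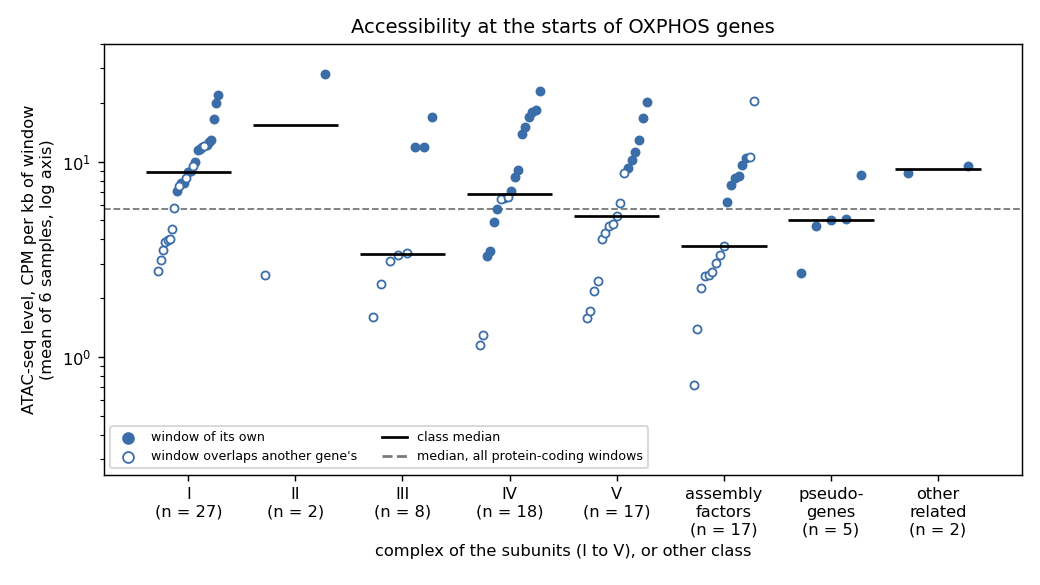
Mean level over the 6 samples (CPM per kb of window, log axis) of each of the 96 member windows by complex or class. Filled points are windows that overlap no other and open points overlap another gene's window. The lowest point of each complex is open, and Sdhb is the highest point at 28.1.

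Of the muscle isoforms of complex IV, Cox7a1 was above its partner by windows and by peaks, while Cox8b and Cox6a2 were below theirs per kb of peak. Cox7a1 had 17.9 ± 1.75 CPM per kb and Cox7a2 had 9.09 ± 0.404 (SD, n = 6). The log2 ratio of Cox7a1 to Cox7a2 was 0.83, 0.95 and 1.11 in the LacZ-shRNA samples and 0.95, 1.02 and 0.97 in the Yap-shRNA samples, above 0 in 6 of 6. From the peaks the same ratio was 0.59 ± 0.14 (SD, n = 6). Cox8b had 16.9 ± 1.76 CPM per kb and Cox8a had 18.4 ± 2.06, and their log2 ratio of -0.12 ± 0.13 (SD, n = 6) was within the spread between samples. From the peaks the ratio was -0.46 ± 0.19 (SD, n = 6), below 0 in 6 of 6 samples. Cox6a2 had 13.8 ± 2.32 CPM per kb. Its window ratio to Cox6a1 (3.55 ± 0.84) rests on the undercounted Cox6a1 window, and from the peaks the log2 ratio was -0.19 ± 0.10 (SD, n = 6), below 0 in 6 of 6 samples. Levels per kb of window and per kb of peak thus gave opposite directions for this pair. The peak ratios depend on the widths of the called peaks. The Cox6a2 peak held a mean of 32.8 CPM in 1365 bases, and the Cox6a1 peak 30.9 CPM in 1126 bases. The Cox8b peak held 42.4 CPM in 1659 bases, and the Cox8a peak 43.5 CPM in 1235 bases.

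Other isoforms were compared in the same way. Cox4i2, the isoform of lung and smooth muscle, had 7.11 ± 0.366 CPM per kb and Cox6b2, the testis isoform, had 6.49 ± 0.850. Neither had a peak. The log2 ratio of Cox6b2 to Cox6b1 was -0.37 ± 0.27 (SD, n = 6), below 0 in 6 of 6 samples. That of Cox4i2 to Cox4i1 was 0.15 ± 0.12, but the Cox4i1 window shares 45.2% of its bases with Emc8 and Gm27021. Ndufa4l2, a relative of the complex IV subunit Ndufa4, had 9.47 ± 2.16 CPM per kb, and its log2 ratio to Ndufa4 of 3.01 ± 0.22 rests on the undercounted Ndufa4 window. Among the 3 genes that encode the same mature c-ring protein, Atp5g1 exceeded Atp5g3 by 0.86 ± 0.17 on the log2 scale in 6 of 6 samples. Atp5g2 was below Atp5g3 by windows (-1.08 ± 0.33) and above it by peaks (0.20 ± 0.27), and its window overlaps that of Mir688.

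**Figure D3:**
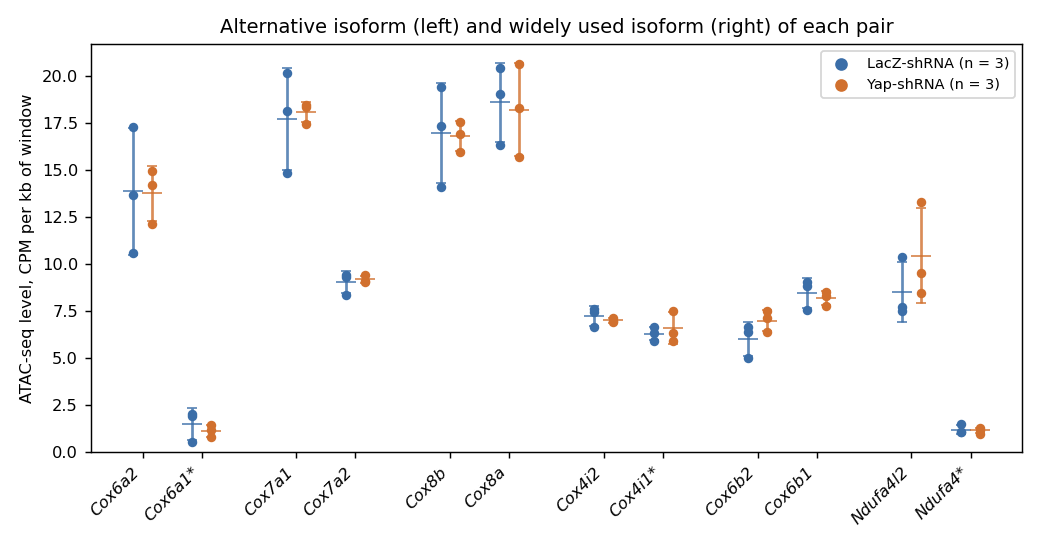
Level (CPM per kb of window) of 6 isoform pairs in each sample, with the mean and SD of each group (n = 3). An asterisk marks a window that overlaps another gene's and is undercounted. The LacZ-shRNA and Yap-shRNA points overlap for every gene, and Cox7a1 (17.9 over all samples) stands above Cox7a2 (9.09).

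The main comparison asked whether accessibility at the OXPHOS genes differed after Yap knockdown. No member window did by the adjusted test. Of the 96 windows, 0 had an adjusted p under 0.05 in edgeR's quasi-likelihood test, where 11 of all 49366 windows (0.0223%) passed. At an unadjusted p under 0.05, 1 member was higher in Yap-shRNA (1.9% of all windows) and 2 were lower (3.01% of all windows). DESeq2 and the likelihood-ratio test also called 0 members, with 0 and 1 higher and 2 and 2 lower at an unadjusted p under 0.05. All 3 Yap-shRNA samples lay above all 3 LacZ-shRNA samples in 2 members (5.31% of all windows) and below them in 4 (4.79% of all windows). The first were Ndufs1 and Ndufaf7, and the second were Ndufaf4, Cox11, Atp5j and Cox7c. The median log2 fold change, Yap-shRNA over LacZ-shRNA, was -0.0030 over members and -0.014 over all windows, with 46 members above 0 and 50 below. The members' values ran from -0.47 (SE 0.39) at Ndufaf5, whose window shares 80.4% of its bases with Esf1 and whose peak had -0.0061, to 0.42 at Ndufs6b. The 95% interval lay within 1.5-fold of no change in either direction for 76 members, so larger changes of these members are outside their intervals.

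By complex, the median log2 fold change was -0.0027 in complex I, -0.12 in complex II, 0.052 in complex III, -0.041 in complex IV and -0.024 in complex V. Assembly factors had a median of -0.0071 in 17 windows. None of these 6 groups held a member past the adjusted threshold. The 2 lower members at an unadjusted p under 0.05 were both assembly factors, and no subunit reached that level in either direction. Both subunits of complex II were below 0 by windows, Sdha at -0.17 (SE 0.16) and Sdhb at -0.075 (SE 0.14), but the peak of Sdhb had 0.099 (SE 0.13). The 5 pseudogenes were all above 0 with a median of 0.12, where 23359 of all 49366 windows were above 0.

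**Figure D4:**
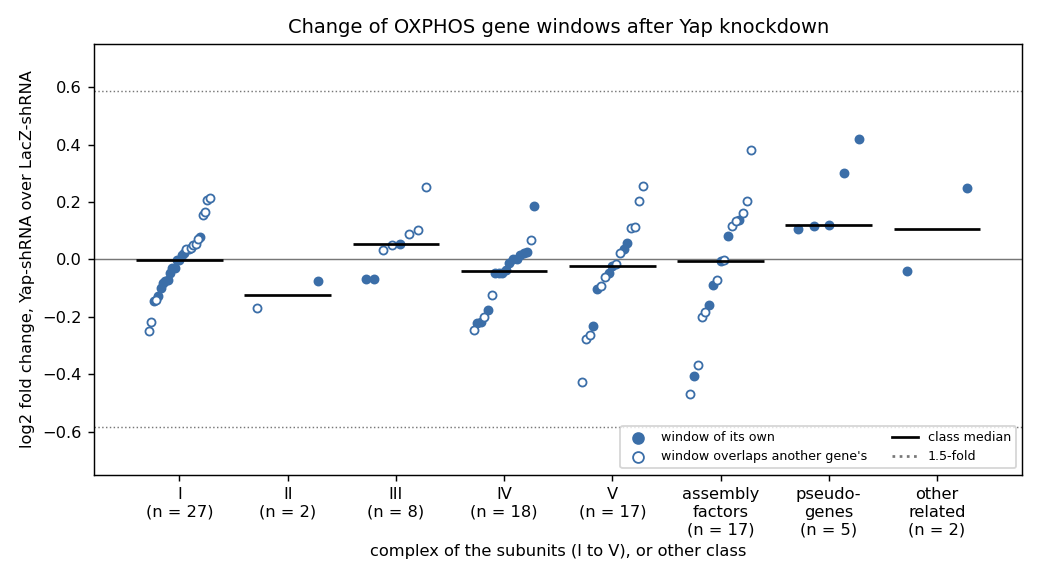
Log2 fold change of each member window (Yap-shRNA over LacZ-shRNA) by complex or class, with class medians as bars and dotted lines at 1.5-fold. All 96 points lie inside the dotted lines, and the class medians of the 5 complexes run from -0.12 to 0.052.

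The muscle isoforms did not pass the test, and their intervals lay within 1.5-fold of no change. Cox6a2 (ENSMUSG00000030785, chromosome 7) held 21.2, 34.6 and 27.3 CPM in LacZ-shRNA and 28.4, 24.2 and 29.9 CPM in Yap-shRNA. Its log2 fold change was 0.016 (95% interval -0.30 to 0.33). Cox7a1 held 30.4, 37.2 and 41.4 CPM in LacZ-shRNA and 35.7, 37.6 and 37.8 CPM in Yap-shRNA, a log2 fold change of 0.022 (95% interval -0.26 to 0.31). For Cox8b the values were 28.2, 38.8 and 34.6 CPM in LacZ-shRNA and 35.1, 31.9 and 33.8 CPM in Yap-shRNA, with 0.0025 (95% interval -0.28 to 0.29). The groups overlapped for all 3 genes, and LacZ-shRNA replicate 1 was the lowest of the 6 samples in each. Their peaks gave log2 fold changes of 0.11, 0.095 and 0.068 in the same order, none with an unadjusted p under 0.05. The isoform ratios of these 3 genes overlapped between the groups too, for example 0.96 ± 0.14 in LacZ-shRNA and 0.98 ± 0.034 in Yap-shRNA for Cox7a1 to Cox7a2 (SD, n = 3). The log2 ratio of Ndufa4l2 to Ndufa4 did not overlap, at 2.86, 2.85 and 2.83 in LacZ-shRNA and 3.04, 3.12 and 3.39 in Yap-shRNA. It rests on the undercounted Ndufa4 window and was not tested.

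Among the assembly factors, Ndufaf4 (ENSMUSG00000028261, chromosome 4, 24898083 to 24905001), which is needed to build complex I and whose NRF1 motif is shown above, had the smallest p-value. Its window held 24.1, 21.8 and 28.3 CPM in LacZ-shRNA and 19.4, 20.9 and 16.5 CPM in Yap-shRNA. All 3 Yap-shRNA samples were below all 3 LacZ-shRNA samples, and the log2 fold change was -0.41 (SE 0.15, edgeR unadjusted p 0.0119, adjusted p 0.946). The peak at its start had -0.38 (SE 0.15, edgeR unadjusted p 0.0158, adjusted p 0.382), and there the groups met at 22.5 CPM. Cox11 (ENSMUSG00000020544, chromosome 11), which delivers copper to complex IV, held 15.4, 17.6 and 17.2 CPM in LacZ-shRNA and 12.3, 12.3 and 14.3 CPM in Yap-shRNA. The groups did not overlap, and the log2 fold change was -0.37 (SE 0.17, edgeR unadjusted p 0.0348, adjusted p 0.946). Its window shares 47.8% of its bases with that of Stxbp4. The peak at the shared start went the other way, with 38.1, 29.3 and 45.8 CPM in LacZ-shRNA and 43.3, 48.4 and 37.1 CPM in Yap-shRNA, overlapping groups and 0.14 on the log2 scale (SE 0.14, edgeR adjusted p 0.862). Ndufaf3, also an assembly factor of complex I, had a log2 fold change of 0.38 (SE 0.31) in a window that shares 87.9% of its bases with Impdh2 and other genes, and its peak had 0.25 (SE 0.13).

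Subunits with the smallest p-values did not pass the unadjusted level. Atp5j, a peripheral stalk subunit of ATP synthase, held 39.4, 43.3 and 40.1 CPM in LacZ-shRNA and 34.2, 28.1 and 38.8 CPM in Yap-shRNA, with -0.28 (SE 0.14, edgeR unadjusted p 0.0572, adjusted p 0.946). The peak it shares with Gabpa held 99.7, 103 and 102 CPM in LacZ-shRNA and 85.1, 88.5 and 83.5 CPM in Yap-shRNA, with -0.24 (SE 0.12, edgeR adjusted p 0.578). The groups were apart in both tables, and the share of the 2 genes in this peak was not tested. Atp5c1, the central stalk subunit of ATP synthase, had -0.43 (SE 0.25) in a window that shares 72.3% of its bases with Kin, while the peak there had -0.14 (SE 0.13). On the other side, Ndufs1, the largest core subunit of complex I, held 24.2, 23.1 and 26.2 CPM in LacZ-shRNA and 28.4, 26.3 and 31.3 CPM in Yap-shRNA. The groups were narrowly apart, at a log2 fold change of 0.21 (SE 0.14, edgeR unadjusted p 0.150, adjusted p 0.949). Its window overlaps that of Eef1b2, and the peak at its start had -0.081 (SE 0.13) with overlapping groups. Ndufb5, an accessory subunit, had 0.21 (SE 0.15) in its window and -0.072 (SE 0.13) in the peak it shares with Mrpl47. Ndufa4l2 had 0.25 (SE 0.17), which was 0.048 without Yap-shRNA replicate 3 and 0.45 without LacZ-shRNA replicate 3. The 1 member with an unadjusted p under 0.05 and a higher level was Ndufs6b, a processed pseudogene. It held 10.7, 19.5 and 14.2 CPM in LacZ-shRNA and 19.6, 16.7 and 21.4 CPM in Yap-shRNA, with overlapping groups and a log2 fold change of 0.42 (SE 0.18, edgeR unadjusted p 0.0249, adjusted p 0.946), which was 0.25 without LacZ-shRNA replicate 1. No protein-coding member was higher at that level.

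The number of members past the unadjusted level depended on LacZ-shRNA replicate 1. Its median log2 CPM over members was 4.40, against 4.53 to 4.67 in the other 5 samples. Without it the median log2 fold change of members was -0.10, that of all windows was 0.0036, and 9 members were lower at an unadjusted p under 0.05 (4.27% of all windows). The smallest adjusted p among members was then 0.166. Without LacZ-shRNA replicate 3 the members' median was 0.062. The part that replicate 1 plays in the result on all samples was not tested further.

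The peaks gave 1 call among members. Of 88 peaks at member starts, 1 had an adjusted p under 0.05, where 223 of all 36097 peaks (0.618%) passed. At an unadjusted p under 0.05, 1 was higher (3.59% of all peaks) and 4 were lower (5.31% of all peaks). All 3 Yap-shRNA samples were above all 3 LacZ-shRNA samples in 5 member peaks (6.55% of all peaks) and below them in 6 (6.76% of all peaks). The median log2 fold change was 0.0028 over member peaks, 0.024 over the 12725 promoter peaks and -0.0026 over all peaks. The called peak is not described here, and the count of calls was 0 with DESeq2, library size alone or a replicate block and ran from 0 to 1 when 1 sample was left out. In 81 of the 88 peaks the 95% interval lay within 1.5-fold of no change.

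Among member peaks that passed only the unadjusted level, the genes below were chosen after their values were seen. The Ndufaf4 peak given above also passed that level. The promoter peak of Ndufb2, an accessory subunit of complex I, held 37.0, 38.2 and 39.3 CPM in LacZ-shRNA and 26.9, 32.5 and 30.6 CPM in Yap-shRNA, with -0.35 (SE 0.13, edgeR unadjusted p 0.0116, adjusted p 0.340). The Ndufb2 window had a log2 fold change of 0.035 (SE 0.15), so windows and peaks differed in direction for this gene. The peak also lies within 1 kb of a start of Gm16272. The promoter peak of Sdha, the catalytic subunit of complex II, shared with Ccdc127, had -0.29 (SE 0.14, edgeR unadjusted p 0.0458, adjusted p 0.547). It was the 1 member peak with a run of 15 G or C bases. In Ndufa10, an accessory subunit of complex I, the promoter peak held 30.9, 33.1 and 34.8 CPM in LacZ-shRNA and 35.0, 43.9 and 44.3 CPM in Yap-shRNA, with 0.31 (SE 0.13, edgeR unadjusted p 0.0256, adjusted p 0.446). Groups that did not overlap were also seen at the peaks of Cox16, Ndufa7, Ndufaf3 and Ndufb6 (higher) and of Atp5j, Cox6b1 and Cox7c (lower), with log2 fold changes from -0.26 to 0.31.

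**Figure D5:**
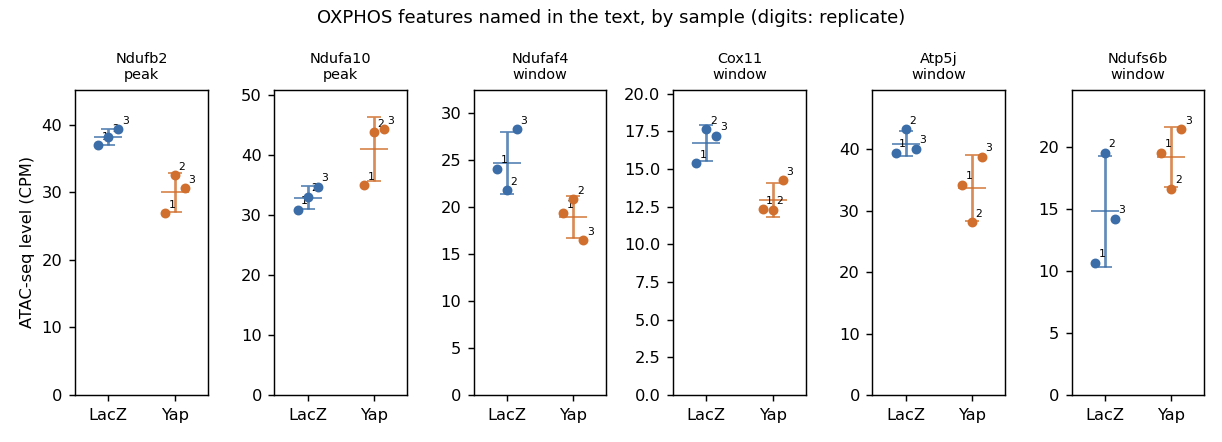
Level (CPM) in each sample, with group mean and SD (n = 3), of the promoter peaks of Ndufb2 and Ndufa10 and of the windows of Ndufaf4, Cox11, Atp5j and Ndufs6b; digits give the replicate. None of these 6 features passed the adjusted threshold, and Ndufs6b is the 1 whose groups overlap.

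The members were also grouped by motif. The 10 windows of genes with NRF1 letters had a median log2 fold change of -0.083, with 8 below 0 and 2 above. Over all 96 members, 50 were below 0 and 46 above. The 8 windows of genes with GABPA letters had a median of 0.052. The 19 with SP1 letters had a median of -0.0018. Both genes with the TEAD motif, Atp5d (0.023) and Cox5a (-0.046), lay close to 0. The peaks of the NRF1 genes were on both sides of 0. They had -0.38 at Ndufaf4, -0.16 at Atp5k, -0.033 at Atp5l and -0.0061 at Ndufaf5. At Atp5g2, Cox6a1, Ndufa6, Sdhb and Uqcr11 they were above 0, from 0.0034 to 0.15, and Uqcrc1 had peaks on both sides.

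The comparison was also made for other genes of the pathway. Of 57 windows of assembly factors outside the naming rule, mobile electron carriers and coenzyme Q enzymes, membrane carriers and transcriptional regulators, 0 passed the adjusted threshold. At an unadjusted p under 0.05, 1 was higher (1.9% of all windows) and 1 was lower (3.01% of all windows), and the median was 0.0035. The higher one was Tmem70, an assembly factor of ATP synthase, at 0.39 (SE 0.17, edgeR adjusted p 0.946). The lower one was Ckmt2, the mitochondrial creatine kinase of muscle. It held 49.7, 53.8 and 59.9 CPM in LacZ-shRNA and 50.5, 42.1 and 40.6 CPM in Yap-shRNA, with -0.30 (SE 0.14, edgeR adjusted p 0.946) and overlapping groups. The membrane carriers had 6 of 7 windows below 0, with a median of -0.14, where 26007 of all 49366 windows were below 0. Slc25a4, named after its value was seen and the muscle form of the ADP/ATP carrier, had -0.28 (SE 0.15). The 25 other assembly factors, 14 electron carriers and 11 regulators had medians of 0.0052, 8.16e-05 and 0.024.

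Depth and labels were checked on the same tables. Window counts totalled 3326803 to 10319467 per sample and peak counts 2588520 to 6871176, with LacZ-shRNA replicates 1 and 2 the shallowest. The members held 0.245% to 0.286% of the window counts. The Yap1 window held 12.1 to 16.7 CPM in LacZ-shRNA and 12.1 to 16.5 CPM in Yap-shRNA, and since a hairpin acts on the RNA, it does not check the knockdown. Markers of muscle fibres (10 genes, such as Acta1, Ckm and Myh4) had a median of 18.7 CPM per kb. Medians were 7.17 for satellite cell, 7.02 for leukocyte, 6.59 for cardiac, 4.83 for endothelial and 3.44 for fibroblast markers. The median of all protein-coding windows was 5.71. A peak lay within 1 kb of a start in 6 of 10 fibre and 1 of 8 cardiac markers. The same held for 1 of 4 satellite cell, 1 of 6 leukocyte, 0 of 5 endothelial and 1 of 5 fibroblast markers. The summed levels of the 8 cardiac markers were 259 to 288 CPM in LacZ-shRNA and 298 to 312 CPM in Yap-shRNA and did not overlap, while those of the fibre markers did, at 1267 to 1816 and 1392 to 1598 CPM. The satellite cell (89.2 to 101 and 88.1 to 97.1), leukocyte (139 to 169 and 160 to 177), endothelial (100 to 112 and 103 to 110) and fibroblast sums (128 to 143 and 140 to 167) overlapped between the groups. Their part in the results above was not tested.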

How the data were processed

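ATAC-seq was performed on PCM1+ nuclei in 3 LacZ-shRNA and 3 Yap-shRNA samples. Per the submitters' processing notes and the study's methods, the authors mapped reads to GRCm38 with BWA 0.7.17, used SAMtools 1.8 to remove duplicates, MACS 1.4.2-1 to call peaks and featureCounts 1.5.0 to count. The authors deposited whole-number counts, not normalized, for peaks found in at least 2 samples and for promoter windows, without rows whose mean count was under 10. Fragment lengths and the transposase offset cannot be examined in such tables.

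Windows were matched by identifier to GENCODE M21 (GRCm38), and 0 columns were left unmapped. Counts were tested across all windows, and separately all peaks, with edgeR 4.0.16 (quasi-likelihood test, TMM factors, no covariate, Benjamini-Hochberg adjustment at 0.05) in R 4.3.3. Levels are TMM-normalised CPM, counts scaled to library size, and log2 fold changes are Yap-shRNA over LacZ-shRNA with the standard error (SE). Member peaks lay within 1 kb of a member's transcript start. Isoform ratios and levels per kb carry no test. The fits were tested on simulated data.

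The members and lists were chosen with earlier results of these data known. Named genes are the isoform pairs, the 5 members with the smallest p in each direction, the highest and lowest of each complex, and any past the adjusted threshold. A member gene of this rule is kept in all counts and is not reported here by name. Alternatives were DESeq2 1.42.0, the likelihood-ratio test, library size alone, a loess offset on abundance, a mean count of at least 50, a replicate block, members with a window of their own, CPM per window, peaks in place of windows and leaving out each sample. Protein-coding members only was added after seeing the data. Same-numbered samples deviated together with correlations of 0.19, -0.12 and 0.092 over windows, so the numbers were not taken as pairs. Nothing says which mice a pool shares, and p-values measure the spread between these pools.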

Additional observations from a re-analysis of the deposited data

How the results depend on the processing

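The count of member windows past the adjusted threshold was 0 under every alternative run, and the member peak count was 1, falling to 0 with DESeq2, library size alone or the replicate block and running from 0 to 1 when 1 sample was left out. At an unadjusted p under 0.05, member windows numbered 1 higher and 2 lower. The higher count was 0 with DESeq2 and 0 with protein-coding members only, and ran from 0 to 2 leaving out 1 sample. The lower count was 1 with library size alone, the replicate block or members with a window of their own, 4 with the loess offset or a mean count of at least 50, and 1 to 9 leaving out 1 sample. Member peaks numbered 1 higher and 4 lower. The higher count was 2 with the likelihood-ratio test, the loess offset or a mean count of at least 50, 0 with DESeq2, 5 with library size alone and 0 to 6 leaving out 1 sample. The lower count was 1 with library size alone and 2 to 5 leaving out 1 sample. Library size alone shifted the median of all peaks to 0.14 and that of member peaks to 0.14, so the members moved with all peaks. Leaving out 1 sample, the median ran from -0.034 to 0.069 in member peaks and from -0.10 to 0.062 in member windows. The replicate block left the window median at 0.0024 and the samples share only a number.

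Isoform ratios per kb of peak, in place of windows, were -0.19 for Cox6a2 to Cox6a1 and 0.20 for Atp5g2 to Atp5g3, both reversed. They were 0.59 for Cox7a1 to Cox7a2 and -0.46 for Cox8b to Cox8a. CPM per window, which ignores the unequal lengths, gave -0.53 for Cox4i2 to Cox4i1 (reversed), 0.61 for Cox7a1 to Cox7a2, -1.02 for Cox6b2 to Cox6b1 and -0.21 for Atp5g2 to Atp5g3. The medians per complex moved by less than their spread in every alternative run. Fold changes near 0 changed sign in 12 of 28 named windows and peaks, in 26 of 332 alternatives, none with a call. With library size alone Cox8a was at 0.025, Cox4i2 at 0.013, Cox6b1 at 0.015 and Atp5g1 at 0.010. Cox8b was at -0.0045 with DESeq2, -0.013 with the loess offset and -0.0045 with a mean count of at least 50. Leaving out 1 sample, the ranges were -0.13 to 0.16 for Cox6a2, -0.78 to 0.28 for Cox6a1, -0.10 to 0.15 for Cox7a1, -0.031 to 0.060 for Cox7a2, -0.11 to 0.088 for Cox8b, -0.14 to 0.063 for Cox8a, -0.11 to 0.0027 for Cox4i2, -0.035 to 0.14 for Cox4i1, -0.13 to 0.017 for Cox6b1, -0.25 to 0.11 for Ndufa4, -0.11 to 0.076 for Atp5g1 and -0.071 to 0.33 for Atp5g3.

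The 2 shallowest libraries are both controls, which limits the precision of every fold change. DESeq2 gave no adjusted p for 44 members and 1 member peak. Among the alternative fits of the windows, Ndufs1, Ndufa4l2, Ndufb5, Cox11 and Cox6b2 kept their direction, but the promoter peaks of Ndufs1, Ndufb5 and Cox11 went the other way.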
